A study of Homo sapiens with 6 samples.

Results

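Actin cytoskeleton genes and genes known as targets of serum response factor (SRF) were followed in HepG2 cells, a human hepatocarcinoma line, with and without added glycine. The 45 genes are the 6 actins, the calponin, tropomyosin and myosin genes, actin crosslinking and adhesion proteins, LIM proteins, SRF and its cofactors MRTFA and MRTFB, filament turnover factors, and TUFT1, AKAP12, ASB2 and VIM. They were matched by symbol to 45 of the 57500 genes in the count files. The list was chosen by function and by earlier results on the same libraries, in which TAGLN, ACTA1, AKAP12 and ASB2 stood among the largest rises with glycine. The comparison of glycine with vehicle is therefore a description for these genes. An adjusted p decides which of them are called below, but no p-value of a member is given or used as support. The study held 6 libraries of total RNA from wild-type HepG2 cells, 3 treated for 24 h with vehicle and 3 with 10 mM glycine. Both groups were kept in a standard medium that itself contains glycine, so the vehicle group was not free of it. HepG2 is a single tumour-derived line, and the series description calls the 3 libraries of each group independent replicates.

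Actin exists as single molecules and as filaments, and filaments are built, bundled and pulled on by binding proteins and by myosin II motors. SRF binds a short DNA element, the CArG box, in the promoters of many of these genes. Its cofactors MRTFA and MRTFB bind unpolymerised actin, which holds them back from SRF, while the ternary complex factors of the ELK family bring SRF to immediate-early genes. Smooth muscle cells are best known for high levels of ACTA2, TAGLN, CNN1 and MYL9, whereas hepatocytes and hepatoma cells use ACTB and ACTG1 as their main actins.

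The libraries held between 31795489 and 58815986 counts, and 3 counts, taken as the lowest detectable level, were worth between 0.051 and 0.0944 CPM (counts scaled to the size of the library) for counting error alone. All 10 hepatocyte markers checked were present, and their summed level ranged from 30745 to 34760 CPM with vehicle and from 26412 to 30114 CPM with glycine. Of 10 fibroblast and mesenchymal markers, 8 stayed under 1 CPM in every library and POSTN was at 0, and the summed level was 27.1 to 31.2 CPM with vehicle and 21.5 to 22.1 CPM with glycine, most of it PDGFRB. Of 10 muscle markers, 9 stayed under 1 CPM, and MYOCD, MYOD1, MYOG, MYH2 and TTN were at 0 in all 6 libraries. Only CKM and MYH11 of them were tested, and neither was called (log2 changes 0.59 and -0.08). The summed muscle marker level was 1.89 to 2.49 CPM with vehicle and 2.42 to 3.35 CPM with glycine. In bulk RNA, fewer cells with a transcript and less transcript per cell cannot be told apart.

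RefSeq promoter windows on GRCh38.p14, running from 250 bases before the transcript start to 50 bases after it, were found for 42 members. ACTB, TAGLN and MYL9 had no entry. The CArG box, which is CC followed by 6 bases that are each A or T and then GG, was searched on both strands. It was found in the windows of 11 members, ACTA1, ACTC1, ACTG2, ACTG1, CNN2, TPM4, FLNA, FHL2, SRF, AKAP12 and ASB2. Across all 35116 promoter windows of the same length, 454 held a box, or 1.29%, and among those of tested genes the share was 1.14%. The members were picked partly as known SRF targets, so this difference in share describes the choice of genes. A match does not show that SRF is bound, and only the first window listed for each member was used. The shares over all promoters count every window, and the 15858 windows of tested genes outnumber the 15492 tested genes. The upstream parts of 5 windows are shown because these genes span the members with a box, from the largest rises with glycine to SRF itself, which did not pass the threshold. They are written 5′ to 3′ on the strand of the gene, and capitals mark the CArG boxes.
ACTA1 (chr1:229434095-229434344, minus strand): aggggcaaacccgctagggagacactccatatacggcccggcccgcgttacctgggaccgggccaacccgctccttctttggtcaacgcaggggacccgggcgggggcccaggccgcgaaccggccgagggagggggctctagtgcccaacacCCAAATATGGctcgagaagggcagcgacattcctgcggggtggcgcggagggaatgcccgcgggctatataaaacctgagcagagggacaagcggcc
ACTG2 (chr2:73892758-73893007, plus strand): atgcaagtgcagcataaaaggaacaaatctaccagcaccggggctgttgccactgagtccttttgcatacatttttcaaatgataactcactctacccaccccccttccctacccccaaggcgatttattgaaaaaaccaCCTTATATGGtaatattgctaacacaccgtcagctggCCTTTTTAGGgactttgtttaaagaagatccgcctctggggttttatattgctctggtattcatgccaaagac
AKAP12 (chr6:151239717-151239966, plus strand): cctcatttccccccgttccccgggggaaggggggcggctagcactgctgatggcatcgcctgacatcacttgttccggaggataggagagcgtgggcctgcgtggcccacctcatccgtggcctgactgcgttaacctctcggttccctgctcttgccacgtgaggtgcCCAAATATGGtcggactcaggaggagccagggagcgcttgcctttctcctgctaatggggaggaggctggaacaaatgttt
ASB2 (chr14:93976571-93976820, minus strand): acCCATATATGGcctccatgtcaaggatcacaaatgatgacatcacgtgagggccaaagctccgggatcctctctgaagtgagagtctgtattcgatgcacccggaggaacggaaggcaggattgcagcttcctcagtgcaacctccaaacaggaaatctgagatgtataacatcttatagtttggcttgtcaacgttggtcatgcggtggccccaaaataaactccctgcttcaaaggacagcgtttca
SRF (chr6:43171019-43171268, plus strand): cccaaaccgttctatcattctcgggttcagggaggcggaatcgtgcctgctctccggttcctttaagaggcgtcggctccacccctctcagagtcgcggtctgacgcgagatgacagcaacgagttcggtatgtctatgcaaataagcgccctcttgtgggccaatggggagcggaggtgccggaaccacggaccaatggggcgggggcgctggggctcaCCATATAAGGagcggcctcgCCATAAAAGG
ACTA1 and AKAP12 held the same box, CCAAATATGG, at positions -97 to -88 and -81 to -72 counted from the start. ACTG2 held CCTTATATGG and CCTTTTTAGG, beginning at -110 and -73. In ASB2 the box CCATATATGG lay at the far end of the window, beginning at -248, and the same letters began at -94 in ACTG1. SRF held CCATATAAGG and CCATAAAAGG, beginning at -30 and -10. Of the other members with a box, ACTC1 and TPM4 held CCAAATAAGG, CNN2 held CCTTATAAGG, FLNA held CCAATTAAGG and FHL2 held CCTTAAAAGG.

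2 other motifs were counted in the same windows on both strands. TATAAA, the letters of the TATA box, was in 5 of 42 member windows (ACTA1, ACTC1, ACTG2, FHL2 and SRF), against 11.5% of all windows and 6.43% of those of tested genes. Only ACTA1 and ACTC1 held it on the strand of the gene, beginning at -30 and -31. In ACTG2, FHL2 and SRF the match was on the other strand, and in SRF it lay after the start, so a match here is not a TATA box by itself. CATTCC, the core letters bound by TEAD factors, was in 8 of 42 (ACTA1, CALD1, MYL12A, MYH9, MYH10, VCL, FLNC and PFN1), against 14% and 11.6%. All 5 members with TATAAA on either strand also held a CArG box.

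Levels of different genes were compared in the vehicle libraries as CPM per kb of exon length. ACTG1 and ACTB were the highest members, at 1262 and 1181 CPM per kb, and their vehicle ranges of 1139 to 1371 and 1050 to 1279 overlapped. PFN1, which binds single actin molecules and feeds them to growing filaments, followed at 592 CPM per kb, with no overlap on either side. ACTN4, FLNA, MYH9 and CFL1 lay between 136 and 167 CPM per kb and overlapped each other as neighbours in the order. SRF stood at 28.1 CPM per kb, above MRTFA at 8.42 and MRTFB at 2.83. The smooth muscle genes were spread widely, with ACTA2 at 24.6, TAGLN at 15.3, MYL9 at 10.2 and CNN1 at 0.144 CPM per kb. ACTA1, the skeletal muscle actin, was at 14.2 CPM per kb. VIM, the mesenchymal intermediate filament gene, was at only 0.0201 CPM per kb, and FLNC and ACTC1 were lower by margins within their vehicle ranges. Of the 44 pairs of neighbours in the order of all members, 25 overlapped between their vehicle libraries.

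The members also varied together within the vehicle group. Vehicle replicate 2 was the highest of the 3 vehicle libraries for 25 of 42 tested members (59.5%), against 33.8% of all tested genes. Vehicle replicate 1 was the lowest for 25 of 42 (59.5%), against 32.8% of all tested genes. FLNA, an actin crosslinker, was at 1469, 1846 and 1175 CPM. In the glycine group the 3 libraries were highest for 16, 16 and 10 members. The median coefficient of variation of the members was 7.85% with vehicle and 5.26% with glycine, against 8.18% and 6.83% over all tested genes. What sets the vehicle libraries apart for these genes was not tested.

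A total of 42 members were abundant enough to be tested, and ACTC1, FLNC and VIM were not. A gene was called where its adjusted p in the edgeR quasi-likelihood test over all 15492 tested genes was under 0.05. With glycine, 17 members were called higher and 2 lower, and 23 were not called, so 19 of 42 members passed the threshold. Over all tested genes, 13.3% were called, 6.71% higher and 6.54% lower. The share of members says nothing beyond the way they were chosen, and the low-count filter kept ACTG2 only through its glycine libraries. The median log2 change of the tested members was 0.19, against 0.00 over all tested genes. Of the called members, 7 rose at least 2-fold, 4 rose by 0.5 to 1 on the log2 scale, and the other 6 rises and both falls were smaller than 0.5. The groups did not overlap for 28 of 42 tested members, against 31.6% of all tested genes.

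**Figure D1:**
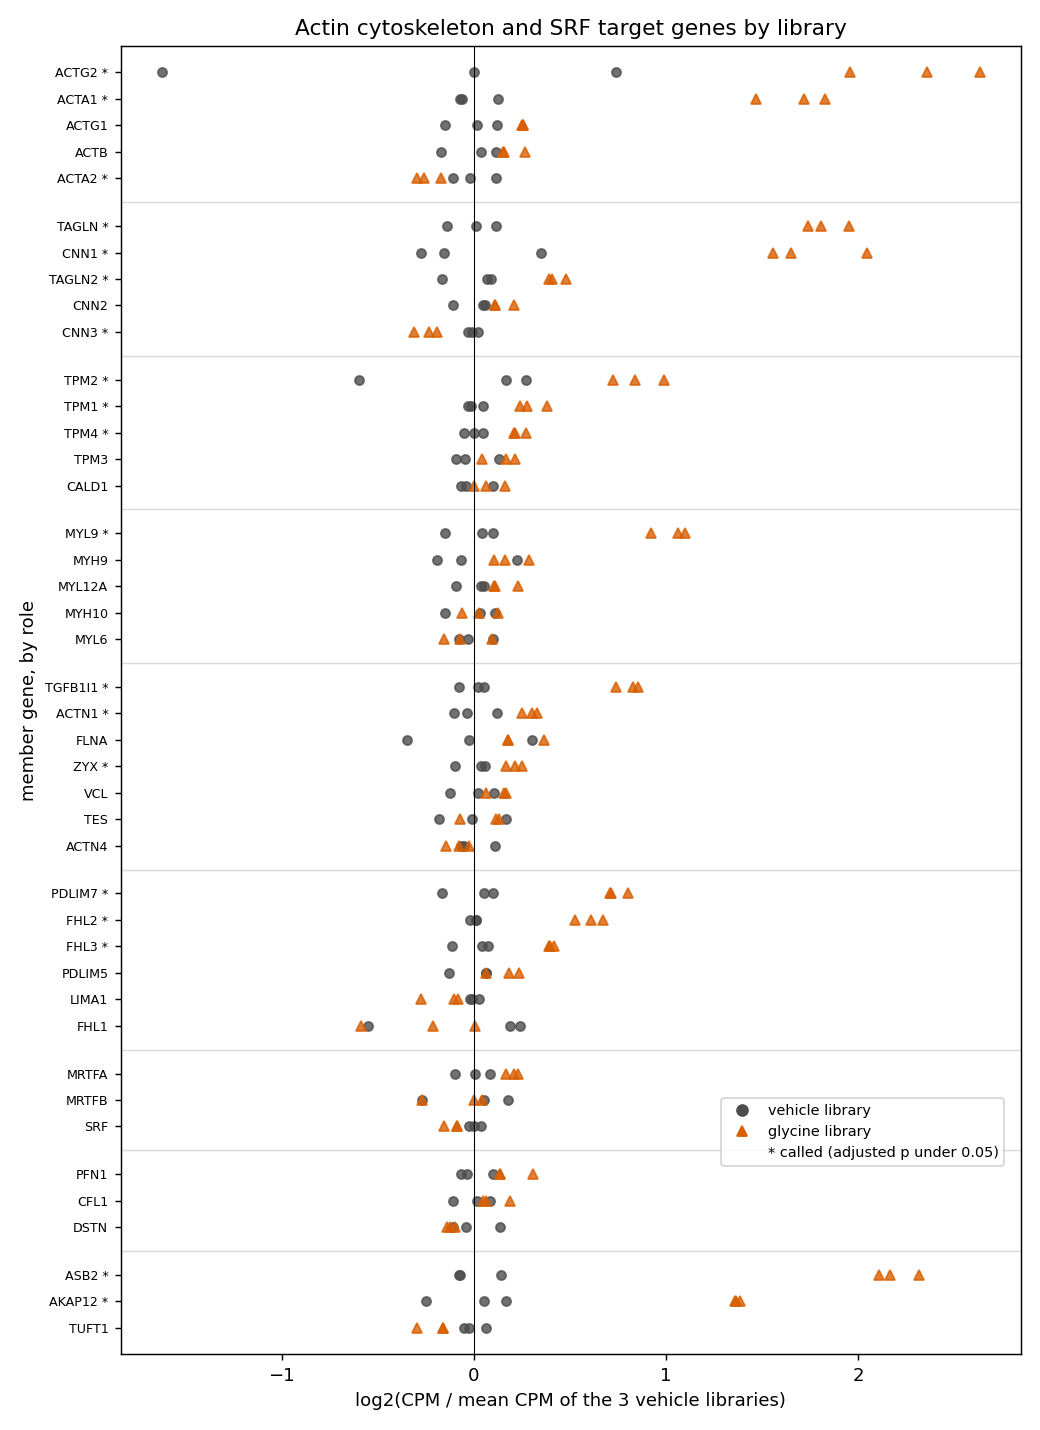
Each row is a tested member, and the x axis gives the log2 ratio of the CPM in each library to the mean of the 3 vehicle libraries (grey circles, vehicle; orange triangles, glycine). The glycine libraries of ACTG2, ASB2, TAGLN, CNN1, ACTA1, AKAP12 and MYL9 lie furthest to the right of their vehicle libraries. Those of ACTA2 and CNN3, which were called lower, lie to the left. The glycine libraries of LIMA1, SRF and TUFT1, which were not called, also lie to the left without overlap.

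Among the actins, ACTA1 and ACTG2 were called higher and ACTA2 lower. The main cellular forms ACTB and ACTG1 did not pass the threshold, and ACTC1 was not tested. ACTA1, the skeletal muscle actin, was at 20.2, 23.1 and 20.3 CPM in the vehicle libraries and at 69.7, 75.2 and 58.6 CPM in the glycine libraries. Every glycine library exceeded every vehicle library, and the log2 change was 1.68 ± 0.0942 (s.e.). ACTG2, the enteric smooth muscle actin, rose from a very low level, with 0.0856, 0.143 and 0.0278 CPM with vehicle and 0.439, 0.53 and 0.332 CPM with glycine. These values rest on 3, 5 and 1 counts with vehicle and 14, 31 and 14 with glycine, so the log2 change of 2.33 ± 0.471 is the least precise of the called members. ACTA2, the vascular smooth muscle actin, went the other way, at 67.9, 79.3 and 72.3 CPM with vehicle and 65.1, 61.1 and 59.7 CPM with glycine. The groups did not overlap, and the log2 change was -0.24 ± 0.0709. That call was lost when any 1 glycine library, vehicle replicate 2 or vehicle replicate 3 was left out, and the log2 change ran from -0.30 to -0.18 over the alternative settings. FAS, which lies on the other strand and covers 30.1% of the ACTA2 exon length together with ACTA2-AS1, averaged 17.3 CPM in vehicle and 18.3 CPM in glycine libraries and was not called. ACTC1, the cardiac actin, had between 1 and 5 counts in each library, so a difference was not detectable at this depth.

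ACTB was at 3420, 4163 and 3952 CPM with vehicle and at 4619, 4274 and 4288 CPM with glycine. ACTG1 was at 3390, 4081 and 3795 CPM with vehicle and at 4491, 4471 and 4478 CPM with glycine. For both genes every glycine library was above every vehicle library, but the log2 changes of 0.19 ± 0.0933 and 0.25 ± 0.0894 were not called. ACTG1 passed the threshold in 5 of 14 alternative settings, among them leaving out vehicle replicate 2, and ACTB in none of them.

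As a share of the summed CPM per kb of the 6 actins, ACTB and ACTG1 together made up nearly all of the pool. ACTB was 47.6% ± 0.427 (SD, n = 3) with vehicle and 46.2% ± 1.02 with glycine, and ACTG1 was 50.9% ± 0.361 and 51.5% ± 1.03. ACTA1 took 0.606%, 0.575% and 0.538% in the vehicle libraries and 1.56%, 1.74% and 1.36% in the glycine libraries. ACTA2 fell below it, from 1.03%, 0.989% and 0.961% with vehicle to 0.73%, 0.711% and 0.697% with glycine. On this scale ACTA2 was the highest muscle actin in the vehicle libraries and ACTA1 in the glycine libraries. On counts not divided by length, ACTA2 stayed above ACTA1 in glycine replicate 3, at 0.672% and 0.66% of the actin sum. The 4 muscle actins together made 1.57% ± 0.067 (SD, n = 3) of the pool with vehicle and 2.27% ± 0.2 with glycine. These genes are close paralogs, but no stretch of 100 bases in a coding transcript of 1 actin was present in another, and at 50 bases the shared part was at most 0.737% of the stretches of a gene. Counts in the 21 pseudogenes of ACTG1 and the 11 of ACTB came to at most 0.105% and 0.012% of the parent's counts in any library.

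**Figure D2:**
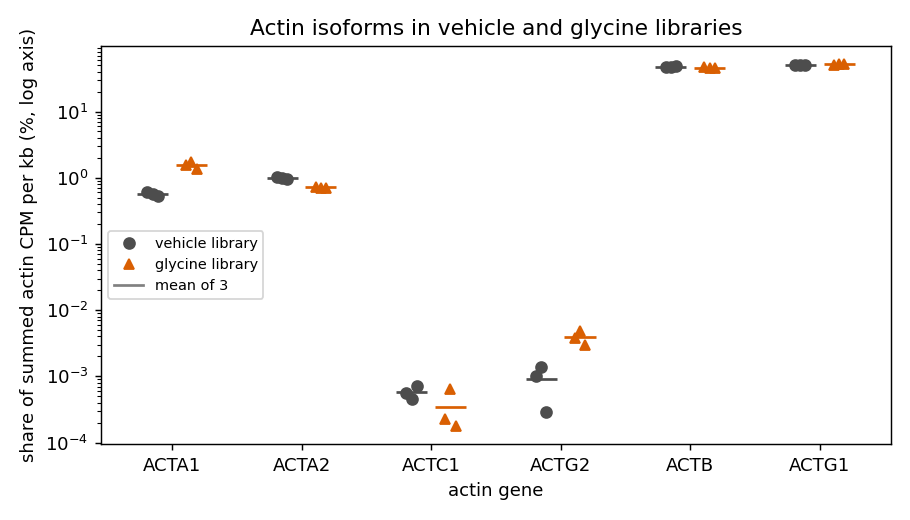
The share of each of the 6 actin genes in their summed CPM per kb of exon length is shown on a log axis for each vehicle (grey circles) and glycine (orange triangles) library, with a line at the mean of 3. ACTB and ACTG1 stay near 50%, ACTA1 rises from 0.573% to 1.55% on average, and ACTA2 goes from 0.992% to 0.712%.

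In the calponin family, which binds along actin filaments, TAGLN and CNN1 showed the large rises. TAGLN, also called transgelin or SM22, was at 54.3, 65 and 60.3 CPM with vehicle and at 209, 232 and 200 CPM with glycine. The lowest glycine library was above the highest vehicle library by a wide margin, and the log2 change was 1.84 ± 0.0812. PCSK7, which covers 11.4% of the TAGLN exon length on the other strand, averaged 29.4 CPM in vehicle and 29.7 CPM in glycine libraries. CNN1, smooth muscle calponin, was at 0.343, 0.373 and 0.529 CPM with vehicle and at 1.22, 1.3 and 1.71 CPM with glycine, a log2 change of 1.76 ± 0.254 without overlap of the groups. TAGLN2, the form found outside muscle, rose by 0.43 on the log2 scale. TAGLN made 48.5% of the TAGLN and TAGLN2 sum per kb with vehicle and 71.4% with glycine. CNN2, a calponin of non-muscle cells, was not called (log2 change 0.15), and CNN3 fell by 0.25, a call that was lost when glycine replicate 2, glycine replicate 3 or vehicle replicate 1 was left out, where the log2 change stayed between -0.26 and -0.21.

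Tropomyosins coil along the filament and set which proteins can bind it. TPM2, the form most typical of muscle, was at 1.88, 1.03 and 1.75 CPM with vehicle and at 2.79, 2.58 and 3.1 CPM with glycine. The groups did not overlap, although vehicle replicate 2 was well below the other vehicle libraries, and the log2 change was 0.85 ± 0.198. TPM1 and TPM4 rose by less, with log2 changes of 0.30 and 0.23, and TPM3, the most abundant of the 4 per length, was not called (0.14). The TPM2 call was lost without glycine replicate 3, where the log2 change was 0.77. The TPM4 call was lost without any 1 glycine library, vehicle replicate 1 or vehicle replicate 3, where the log2 change stayed between 0.20 and 0.23. Other genes cover 22.7% of the TPM1 exon length on the other strand. CALD1, caldesmon, which restrains myosin on the filament, was not called (0.08).

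MYL9, a regulatory light chain of myosin II, was the only myosin chain called among 5 members. It was at 25.8, 30.6 and 29.5 CPM with vehicle and at 61.3, 59.7 and 54.1 CPM with glycine. All glycine libraries lay above all vehicle libraries, and the log2 change was 1.03 ± 0.0792. The other regulatory light chain, MYL12A, changed by 0.15, the essential light chain MYL6 by -0.04, and the heavy chains MYH9 and MYH10 by 0.19 and 0.03, and none of these was called. MYH9 was called without vehicle replicate 2, its highest vehicle library, where the log2 change was 0.31. Of 10 other myosin genes, MYO1E and MYO10 were called higher (0.27 each), where 6.71% of all tested genes were, and the median of the 10 was -0.02. Among the fits with 1 library left out, both calls were kept only without vehicle replicate 2.

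Focal adhesion and crosslinking proteins moved little, apart from TGFB1I1. TGFB1I1, or Hic-5, an adhesion protein related to paxillin, was at 9.11, 8.49 and 9.32 CPM with vehicle and at 15.9, 15 and 16.2 CPM with glycine. The glycine values were all higher, with a log2 change of 0.80 ± 0.0831. ACTN1, a crosslinker, and ZYX, which gathers at strained filaments, were called with log2 changes of 0.29 and 0.21. The ACTN1 call was lost without glycine replicate 1, glycine replicate 2 or vehicle replicate 1, with log2 changes from 0.24 to 0.36 over all settings, and the ZYX call without any 1 library other than vehicle replicate 2, with log2 changes from 0.15 to 0.24. VCL, the vinculin gene, TES and ACTN4 were not called (0.13, 0.06 and -0.08). FLNA, at 1927, 1696 and 1696 CPM with glycine, overlapped its wide vehicle range and was not called (0.24), and it was called without vehicle replicate 2, where the log2 change was 0.42. Within the alpha-actinin pair, ACTN1 made 21% of the sum per kb with vehicle and 25.7% with glycine. FLNC, the muscle filamin, had between 3 and 13 counts in a library and was not tested.

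Among the LIM proteins, PDLIM7, FHL2 and FHL3 rose and the other 3 did not pass the threshold. PDLIM7, or enigma, a scaffold on stress fibres, was at 79.9, 92.8 and 95.9 CPM with vehicle and at 147, 156 and 146 CPM with glycine, a log2 change of 0.74 ± 0.0738. FHL2, a LIM-only protein and known SRF target, was at 16, 16.3 and 16.3 CPM with vehicle and at 23.3, 25.8 and 24.7 CPM with glycine, a log2 change of 0.61 ± 0.0722. Neither gene had overlapping groups, and FHL2 had the tightest vehicle values of the members named by library. FHL3 rose by 0.40, while PDLIM5 (0.16), LIMA1 (-0.15) and FHL1 (-0.22) were not called, and FHL1 was under 1 CPM in every library.

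AKAP12 and ASB2, which are not part of the filament, were among the largest rises and were in the list because of that. AKAP12, a scaffold for protein kinases, was at 89, 96.3 and 72.4 CPM with vehicle and at 224, 220 and 221 CPM with glycine, a log2 change of 1.37 ± 0.0889. ASB2, the substrate receptor of a ubiquitin ligase that targets filamins for degradation, was at 2.68, 2.69 and 3.12 CPM with vehicle and at 12.2, 12.7 and 14.1 CPM with glycine, a log2 change of 2.20 ± 0.11. In both genes the groups were far apart. The mRNA of its substrate FLNA did not pass the threshold, as given above, and protein was not measured. TUFT1 was not called (-0.21), and VIM had between 2 and 5 counts in a library.

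SRF and its cofactors did not pass the threshold at the RNA level. SRF was at 116, 118 and 121 CPM with vehicle and at 106, 111 and 111 CPM with glycine, all lower than with vehicle, and the log2 change of -0.11 ± 0.0591 was not called. MRTFA was at 55.9, 59 and 51.9 CPM with vehicle and at 65.1, 62.4 and 64.2 CPM with glycine, all higher, with a log2 change of 0.20 ± 0.0661 that was not called. MRTFA passed the threshold with total count scaling (0.21) and without vehicle replicate 2 (0.25). MRTFB was at 53.1, 48.7 and 38.9 CPM with vehicle and at 46.9, 38.9 and 48.3 CPM with glycine, and the glycine values lay within the vehicle range. Of 6 other SRF partners, ELK3 was called higher (0.48) and ELK4 lower (-0.32), ELK1 and SCAI were not called, ABRA had 1 count in all, and MYOCD, the muscle cofactor, was at 0 in every library, which allows up to 3 counts in each. The ELK4 call was lost without glycine replicate 2 or vehicle replicate 1. The factors that turn over monomers and filaments, DSTN, CFL1 and PFN1, were not called, with log2 changes of -0.12, 0.10 and 0.20. ENO3, which covers 5.59% of the PFN1 exon length on the other strand, was called lower, from 40.3 CPM in vehicle to 27.3 CPM in glycine libraries.

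**Figure D3:**
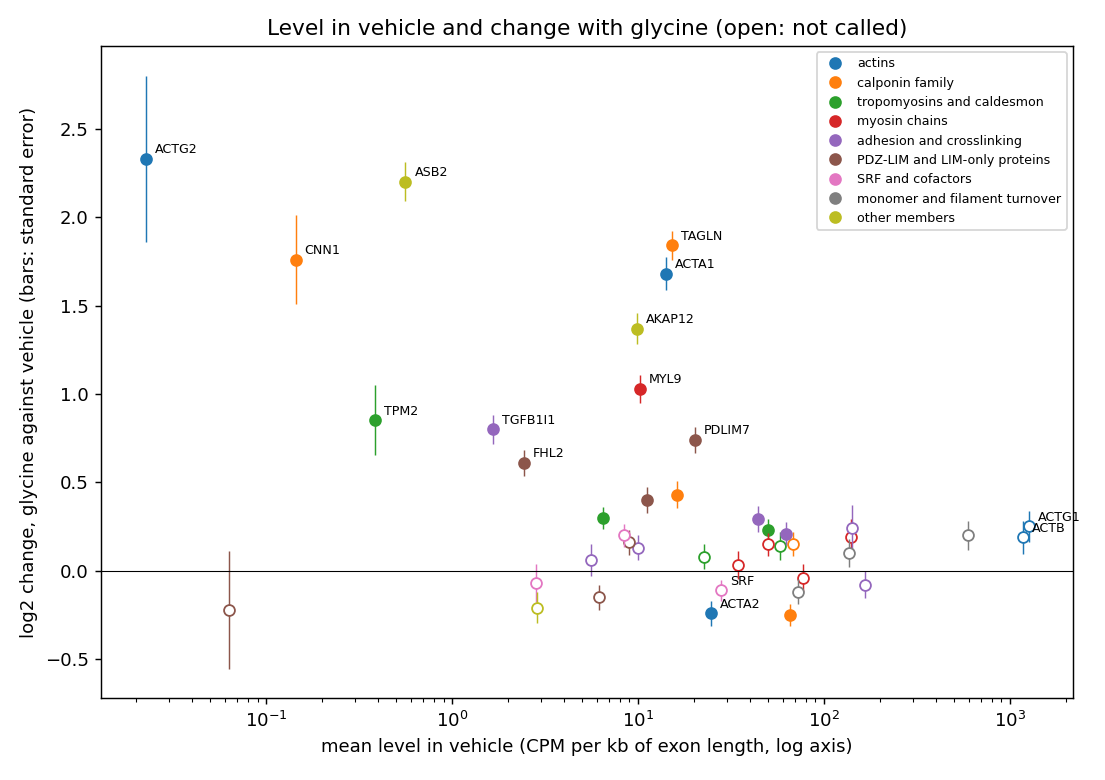
Each point is a tested member, with its mean level in the vehicle libraries (CPM per kb of exon length, log axis) on the x axis and its log2 change with glycine, with the standard error as a bar, on the y axis (filled, called; open, not called; colours, roles). The members above 0.5 all lie below 50 CPM per kb, and the 15 members at or above 50 CPM per kb lie between -0.25 and 0.25.

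The members are given here by level in vehicle as a description, since TAGLN, ACTA1, AKAP12 and ASB2, which were chosen for their rises, all lie under 50 CPM per kb. Of 15 members with at least 50 CPM per kb in vehicle, 2 were called higher (TPM4 and ZYX) and 1 lower (CNN3), and log2 changes ran from -0.25 to 0.25. Of 11 members between 10 and 50 CPM per kb, 7 were called higher and 1 lower, with log2 changes up to 1.84. Of 16 members under 10 CPM per kb, 8 were called higher, with log2 changes up to 2.33. Over all tested genes, the shares called higher in these ranges, from high to low, were 5.61%, 7.85% and 6.45%.

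The members with a box include ACTA1, AKAP12 and ASB2, which were chosen for their rises, and ACTG2, so the split by CArG box is a description from which no link to SRF can be read. Over all tested genes 6.71% were called higher. Of the 10 tested members with a box in the window, 6 were called higher (ACTG2, ASB2, ACTA1, AKAP12, FHL2 and TPM4), 0 lower, and 4 were not called (ACTG1, FLNA, CNN2 and SRF). Their log2 changes ran from -0.11 to 2.33, with a median of 0.43. Of the 29 tested members whose window held no box, 9 were called higher and 2 lower, with log2 changes from -0.25 to 1.76 and a median of 0.14. CNN1, with a log2 change of 1.76, had no box in its window, and these letters outside the window were not searched.

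**Figure D4:**
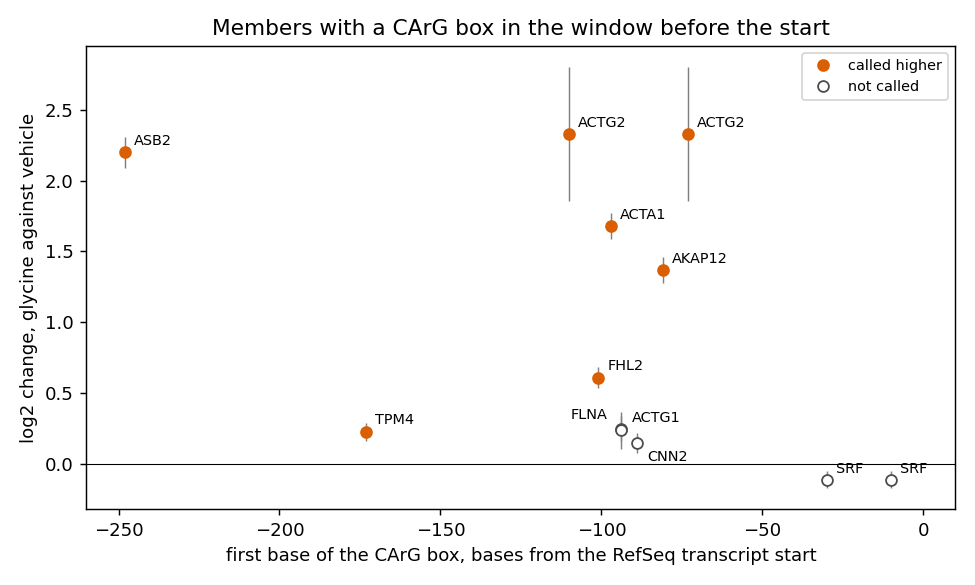
For the tested members with a CArG box, the x axis gives the first base of the box in bases from the RefSeq transcript start and the y axis the log2 change with glycine, with the standard error as a bar (orange, called higher; open, not called). ACTG2 and SRF have 2 boxes each, and boxes that begin between -97 and -81 stand in ACTA1, ACTG1, FLNA, CNN2 and AKAP12 with log2 changes from 0.15 to 1.68.

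Genes of the same pathway outside the members were taken from lists written with the earlier results known. Of 18 other SRF targets, 14 were tested, of which 9 were called higher and 0 lower. Their median was 0.52 on the log2 scale, against 0.00 over all tested genes, of which 6.71% were called higher and 6.54% lower. Since the list was written with the results known, this count is a description. By size of change these included ITGA5, an integrin subunit (0.94), ANKRD1 (0.74), CCN2 (0.68), CCN1 (0.68) and MICAL2, which oxidises actin (0.66). CCN1, CCN2 and ANKRD1 are also known targets of YAP and TEAD. CCN2 went from 147 ± 10.1 CPM (SD, n = 3) with vehicle to 236 ± 27.1 CPM with glycine, and ANKRD1 from 54.1 ± 2.46 to 90.5 ± 7.18 CPM. MYLK, LPP, WDR1, TLN1 and MYH11 were not called, with log2 changes from -0.25 to 0.08, and at an unadjusted p under 0.05 edgeR had 1 of the 14 lower.

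Immediate-early genes, which SRF drives with the ternary complex factors, moved in both directions. Of 10 such genes 9 were tested, with 5 called higher, 1 called lower and a median of 0.34 on the log2 scale. The shares among all tested genes were 6.71% higher and 6.54% lower. EGR1 rose by 0.97 on the log2 scale, from 13.7 ± 1.34 to 26.7 ± 3.11 CPM (SD, n = 3), and IER2 and MCL1 were called higher with 0.45 and 0.34. EGR3 and EGR4 were also called higher, from 0.236 to 1.04 CPM and from 0.159 to 0.531 CPM, but they had at most 10 counts in any vehicle library and, like ACTG2, passed the low-count filter only through the glycine libraries. NR4A1 was called lower (-0.41), a call lost with total count scaling and without glycine replicate 1, glycine replicate 2, vehicle replicate 2 or vehicle replicate 3. FOS and FOSB, the best known of these genes, were under 1 CPM on average and were not called, and neither was JUNB (0.19).

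Of 32 other genes of actin assembly and binding, 31 were tested, 5 of them called higher and 1 called lower, and the median was 0.01. Together 19.4% were called in either direction, against 13.3% of all tested genes. The called genes were the monomer-binding thymosins TMSB4X (0.69) and TMSB10 (0.57), DBN1 (0.43), RDX (0.40), PFN2 (0.33) and, lower, VIL1, the villin gene of microvilli (-0.28), whose call was lost without glycine replicate 2.

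Other parts of the cytoskeleton moved as well. All 17 tubulin, keratin and lamin genes had log2 changes above 0, with a median of 0.37. The threshold was passed by 10 of the 17 (58.8%), each of them higher with glycine. Over all tested genes, 13.3% were called in either direction and 6.71% higher. TUBA1A rose by 0.95 on the log2 scale, from 47.3 ± 3.46 to 91.1 ± 3.6 CPM (SD, n = 3), followed by TUBB6 (0.83), TUBB2B (0.81), KRT19 (0.51) and TUBA1B (0.49). Tubulin and keratin genes have close paralogs and pseudogenes between which reads could be divided in counting. Of the 10 hepatocyte markers, APOA1 and TTR were called lower (-0.26 and -0.32), where 6.54% of all tested genes were. The other 8 were not called, and the median log2 change of the 10 was -0.23. The number of hepatocyte markers called lower was 5 without vehicle replicate 2 or with no filter on low counts, and from 1 to 3 in the other settings. COL1A1 was called higher (1.03, at 2.15 CPM with vehicle) and PDGFRB lower (-0.66). Their part in the member values was not tested.

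**Figure D5:**
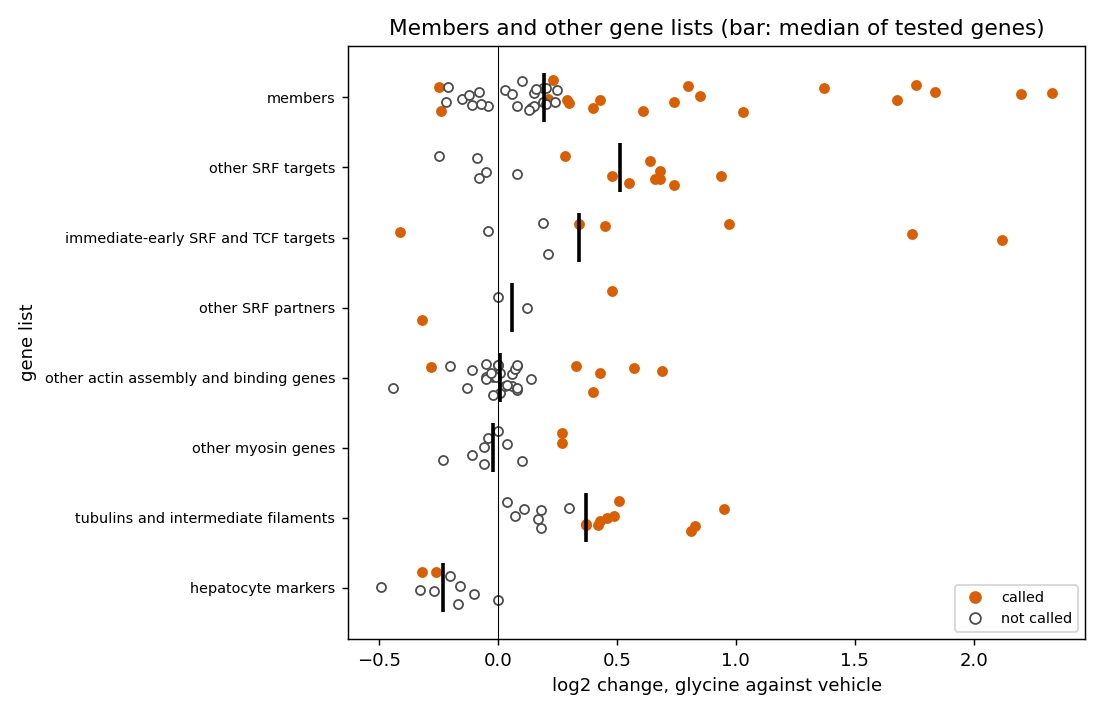
Each point is a tested gene, with its log2 change with glycine on the x axis and its list on the y axis (filled, called; open, not called), and the bar is the median of the list. The medians are 0.19 for the members, 0.52 for the other SRF targets, 0.37 for tubulins and intermediate filaments, 0.01 for the other actin assembly and binding genes and -0.23 for the hepatocyte markers.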

How the data were processed

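RNA was sequenced from 6 HepG2 libraries, 3 with vehicle and 3 with 10 mM glycine for 24 h. Per the labels, the authors' processing notes name Trimmomatic 0.36, STAR 2.5.2b and featureCounts from Subread 1.5.2 with GRCh38. The annotation release, the strand setting and the treatment of multi-mapping reads are not given in the sources used here, and they decide how reads of paralogs and overlapping genes were counted. The deposited values are raw counts per gene, with exon positions and the union exon length, 1 file per library and 57500 genes in each. Symbols were found for 56410 genes.

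A two-sided quasi-likelihood test was run on the counts in edgeR 4.0.16 (R 4.3.3), with the group as the only term. Low genes were removed by filterByExpr (minimum count 10, minimum total 15), TMM factors set the library sizes, and Benjamini-Hochberg adjustment covered 15492 genes, called under 0.05. The standard error was the log2 change divided by the square root of F. CPM used the scaled library sizes, except the value of 3 counts. Replicates of a group differed by a chi-square of 7.59 to 29.3 per degree of freedom over tested genes, so no library repeated another. The authors' own differential test is not given in the sources used here.

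The members, the gene lists, the motifs and the alternatives were chosen with earlier results of these data known. Values per library are given for called members with an absolute log2 change of at least 0.5, for the 6 actins and for SRF, MRTFA and MRTFB. At most 5 called genes of at least 1 CPM are named from a list by size of change, and other list genes were chosen after their values were seen. Alternatives were other scaling, other filters, DESeq2 1.42.0, limma-voom (limma 3.58.1), leaving out 1 library at a time, and a block for the replicate number. Scripts were tested on simulated data. Promoters came from RefSeq (GRCh38.p14), and shared stretches from the GENCODE 29 transcripts. A planned comparison of actin proteins was not made here. Some results on other gene lists are not reported here.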

Additional observations from a re-analysis of the deposited data

How the results depend on the processing

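Across 14 alternative settings, no called member changed sign, and 13 of the 19 called members were called in every setting that tested them. Among these, ACTG2 was tested in 13 settings, since the filter of at least 1 CPM in 3 libraries removed it. The other 6 (ACTA2, CNN3, TPM2, TPM4, ACTN1 and ZYX) lost their call in at least 1 setting, and 4 uncalled members (ACTG1, MYH9, FLNA and MRTFA) gained one. ZYX alone lost its call through scaling, with DESeq2 size factors or upper-quartile factors. Members called higher ran from 15 to 19 with other scaling, filters or tests, and from 14 to 21 with 1 library left out. Members called lower were 2 as reported, 1 with the replicate block, and from 0 to 1 with 1 library left out. With 1 library left out, which leaves fewer samples, the count of all genes called higher lay between 587 and 926, and that of all genes called lower between 655 and 1010. Other SRF targets called lower were 0 as reported, 1 with no filter on low counts, and from 0 to 1 with 1 library left out. Immediate-early genes called higher were 3 with at least 1 CPM in 3 libraries, which tests fewer genes, and those called lower were 0 with total count scaling and from 0 to 1 with 1 library left out. Other myosin genes called higher were 0 with DESeq2 size factors and 1 with the replicate block. Where no construction is named, the cause was not tested. The share of higher among all calls was 50.7% as reported and 55.9% under total count scaling.

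Libraries with the same replicate number did not vary together, which cannot show whether they were handled together. After the group means were taken out, libraries with the same number correlated at -0.0577, -0.0268 and -0.00258. Deviations from a group mean cancel out within the group, so the correlations depend on each other. Positive ones stood only between different numbers. They were 0.214 for vehicle replicate 1 with glycine replicate 3, 0.214 for vehicle replicate 2 with glycine replicate 1, and 0.18 for vehicle replicate 3 with glycine replicate 2. Whether these libraries were handled together is not given in the sources used here, and a block for these pairs was not tested. With the replicate number as a block, ACTA2, TPM4 and ZYX were not called, and the other called members were. That block follows the numbers, so it cannot show whether the calls hold under another pairing.

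As a share of counts not divided by length, ACTA1 was 0.276% of the actin sum with vehicle and 0.753% with glycine, and the 4 muscle actins together 1.23% and 1.45%, because their exon models differ in length. Depth limits ACTC1, FLNC and VIM, which were too low to test, and ACTG2 and FHL1, whose values rest on few counts.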
